A study of Mus musculus with 6 samples.

Results

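The genes described are 10 markers of neuroblasts and immature neurons: Dcx, Dlx1, Dlx2, Dlx5, Cd24a, Sox11, Sox4, Igfbpl1, Neurod1 and Sp8. They were chosen as a list of genes of newborn neurons, and each probe set whose platform annotation gives 1 of these symbols alone was taken. That gave 29 probe sets for the 10 genes, of 18193 genes with a probe set of a single symbol. Expression was measured in total RNA of whole brain on 6 one-colour arrays, with 1 brain sample per array and 2 arrays in each of 3 groups, all from C57/Bl6 mice aged 2 months. Pofut1 knockout brains carried the Nestin-Cre transgene and the floxed Pofut1 alleles (Pofut1flox/flox). NestinCre control brains carried the same transgene with wild type Pofut1, and Flox control brains carried Pofut1flox/flox with no Cre. The Nestin sequences drive Cre in neural progenitors, so the floxed alleles are open to deletion in those cells and their neuronal and glial progeny, whereas cells of other lineages in the same brain can keep them.

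Pofut1 encodes the fucosyltransferase that modifies EGF-like repeats of Notch receptors, and Notch signalling holds neural stem cells in an undifferentiated state. In the adult brain new neurons arise in the subventricular zone, from which neuroblasts migrate to the olfactory bulb, and in the hippocampal dentate gyrus. Cells leaving the progenitor state switch on transcription factors of the Dlx and SoxC families, and migrating neuroblasts carry the microtubule-associated protein doublecortin, the product of Dcx. The comparison between genotypes asks whether transcripts of these newborn neurons differ when Pofut1 is deleted. Several of the genes are also used outside newborn neurons: Dlx genes in GABAergic interneurons, Neurod1 in granule cells of the cerebellum and dentate gyrus, Cd24a in ependymal cells, and Sox4 and Sox11 in differentiating oligodendrocyte precursors. In whole-brain RNA, fewer cells of a type and less RNA per cell cannot be told apart.

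None of the 10 genes passed the test in any comparison, and most differences between genotypes were small. Values are log2 of the deposited intensity. The test was limma over all 45037 probe sets, with Benjamini-Hochberg adjustment over all of them and a threshold of 0.05. In knockout brain against both controls, 0 of the 29 probe sets passed, where 0.0155% of all probe sets did, and the smallest limma adjusted p among the 29 was 0.295. For the brightest probe set of each gene, 8 of 10 were lower in knockout and 2 were higher, with a median log2 difference of -0.10. Over all 18193 genes the median was -0.02, and 59.3% were lower. The 95% confidence intervals of these 10 differences, not adjusted for their number, ran from -0.79, a ratio of 0.578 for Igfbpl1, to 0.36, a ratio of 1.29 for Dcx.

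**Figure D1:**
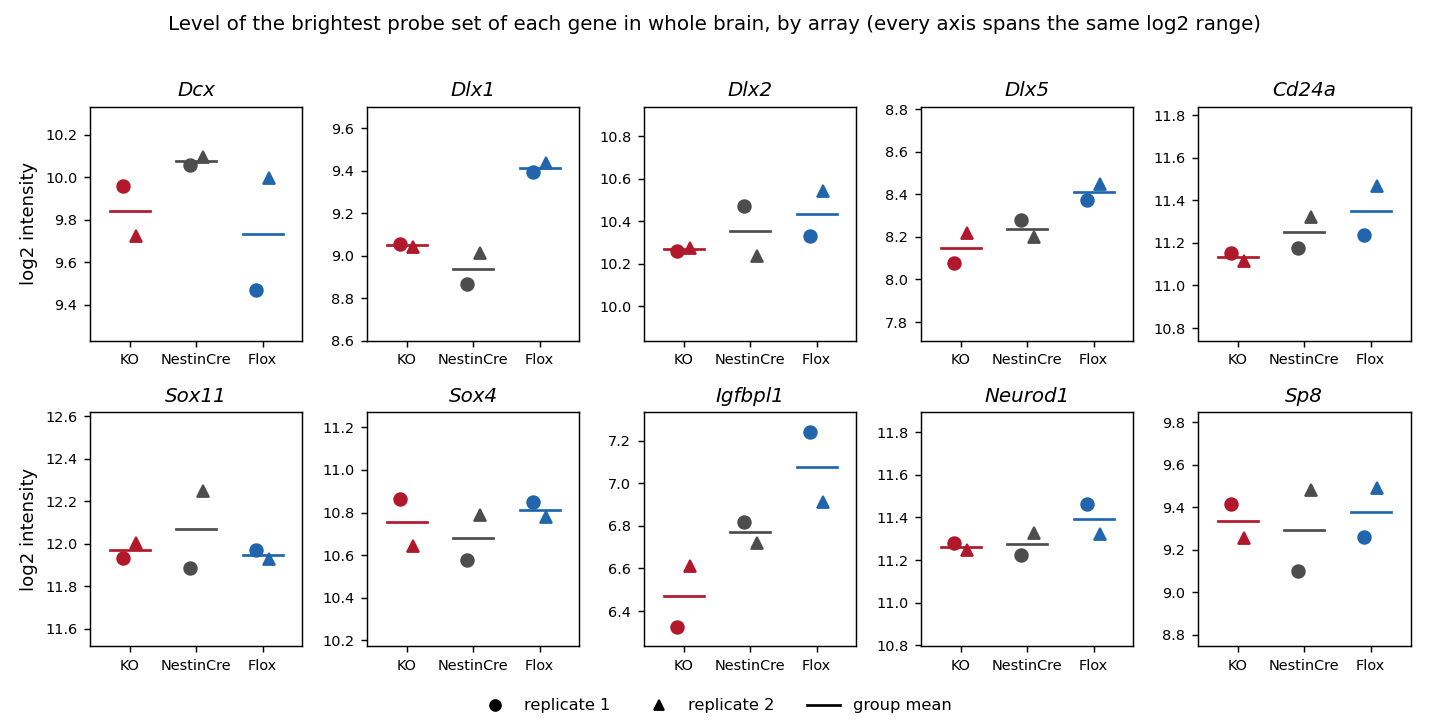
The log2 intensity of the brightest probe set of each gene (vertical axis, the same span in every panel) on each array of the knockout (KO), NestinCre control and Flox control groups, with circles for replicate 1, triangles for replicate 2 and lines for group means. Igfbpl1 was lowest on both knockout arrays, at 6.33 and 6.61, and Dlx1 was highest on both Flox control arrays, at 9.39 and 9.43.

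The arrays were close in overall level, with medians of 7.32 to 7.36. Pofut1 itself, the deleted gene, had 9.25 and 9.44 in knockout, 9.84 and 9.77 in NestinCre control and 9.95 and 9.81 in Flox control at its brightest probe set, with each knockout array under every control (log2 difference -0.50, SE 0.08, limma adjusted p = 0.211). The pan-neuronal transcript Snap25 lay between 13.03 and 13.13 on the 6 arrays, which fits the brain label. By Xist and the Y-linked Eif2s3y, knockout replicate 1 and NestinCre control replicate 2 were male and the remaining 4 arrays female. The pituitary transcripts Prl, Gh, Pomc and Cga were highest on both Flox control arrays. Prolactin (Prl) was at 7.28 and 9.58 there, against 5.66 and 5.77 in knockout and 5.52 and 5.39 in NestinCre control. The pituitary gene Tshb went the other way, at 6.85 and 6.91 in Flox control, 6.95 and 6.96 in knockout and 7.23 and 6.98 in NestinCre control. Another, Lhb, lay between 5.83 and 5.92 on the 6 arrays. Sex differs within the knockout and NestinCre groups, and the pituitary signal differs between groups.

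Dcx, which stabilises microtubules in migrating neuroblasts, did not differ between genotypes beyond the spread of its arrays. At its brightest probe set (1418141_at) Dcx had 9.96 and 9.73 in knockout, 10.06 and 10.09 in NestinCre control and 9.47 and 9.998 in Flox control. Knockout and Flox control overlap: the Flox control arrays lay 0.53 apart, with both knockout arrays between them. Both NestinCre control arrays lay above all arrays of the other groups. The log2 difference of knockout from both controls was -0.06 (SE 0.17, 95% interval -0.49 to 0.36, limma adjusted p = 0.950). The next brightest Dcx probe set (1418139_at) had 9.52 and 9.65 in knockout, 9.53 and 9.58 in NestinCre control and 9.67 and 9.35 in Flox control, with a difference of 0.05 (SE 0.11, limma adjusted p = 0.933). The order of the Flox control arrays was opposite at these Dcx probe sets, with replicate 1 the lowest of all 6 arrays at the brightest set and the highest of all 6 at the next. The remaining Dcx probe sets lay below the median of all probe sets, 7.35, and differed by 0.10 and 0.02.

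The genes whose brightest probe set was most like that of Dcx over the 6 arrays shared the low value of Flox control replicate 1. Among 967 genes above the median level and at least as variable as Dcx, the highest Pearson r was 0.972 for the nuclear receptor gene Rorb, followed by Ifitm1, Polr3f, Arhgef11 and Plxna4 with r of 0.923 or more. Rorb had 6.70 on Flox control replicate 1, against 8.53 to 9.51 on the other 5 arrays. Plxna4, a receptor for semaphorins, had 8.49 and 8.30 in knockout, 8.77 and 8.77 in NestinCre control and 8.21 and 8.78 in Flox control. Without that Flox control array, an alternative chosen after seeing the data, r over the other 5 arrays was 0.997 for Rorb, 0.917 for Plxna4, 0.909 for Polr3f, 0.886 for Ifitm1 and 0.854 for Arhgef11. The arrays hold 3 genotypes, and the r values are a description of them.

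The SoxC transcription factors Sox11 and Sox4 activate neuronal genes in cells that have left the cell cycle. Sox11 had 11.93 and 12.01 in knockout, 11.89 and 12.25 in NestinCre control and 11.97 and 11.93 in Flox control at its brightest probe set. The knockout values lay inside the range of the controls, and the log2 difference was -0.04 (SE 0.11, 95% interval -0.33 to 0.25, limma adjusted p = 0.953). All 6 Sox11 probe sets lay above the median level, and their differences ran from -0.08 to 0.03. Replicates lay further apart than genotype means at some probe sets: the Sox11 probe set 1453125_at had 9.24 and 8.97 in knockout, 8.86 and 9.47 in NestinCre control and 8.83 and 9.19 in Flox control. NestinCre control replicate 2 exceeded replicate 1 at 6 of 6 Sox11 probe sets, Flox control replicate 2 exceeded replicate 1 at 5, and knockout replicate 1 exceeded replicate 2 at 4, with the opposite order at the brightest. Over all 45037 probe sets these orders held for 21895, 22169 and 21677, and the Sox11 probe sets are not independent.

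Sox4 has 8 probe sets, and their differences had both signs. The brightest Sox4 probe set (1433575_at) had 10.86 and 10.64 in knockout, 10.58 and 10.79 in NestinCre control and 10.85 and 10.78 in Flox control, a log2 difference of 0.0051 (SE 0.10, limma adjusted p = 0.994). The groups overlap there. A dim Sox4 probe set (1419155_a_at) had 6.79 and 6.77 in knockout, 6.91 and 6.92 in NestinCre control and 7.14 and 7.03 in Flox control, so both knockout arrays lay below all controls (-0.22, SE 0.05, limma adjusted p = 0.295). Another dim Sox4 probe set (1419157_at) had 5.76 and 5.78 in knockout, 5.62 and 5.63 in NestinCre control and 5.65 and 5.68 in Flox control, with both knockout arrays above all controls (0.12, SE 0.04, limma adjusted p = 0.417). Of the 8 Sox4 probe sets 5 lay below the median level of all probe sets.

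**Figure D2:**
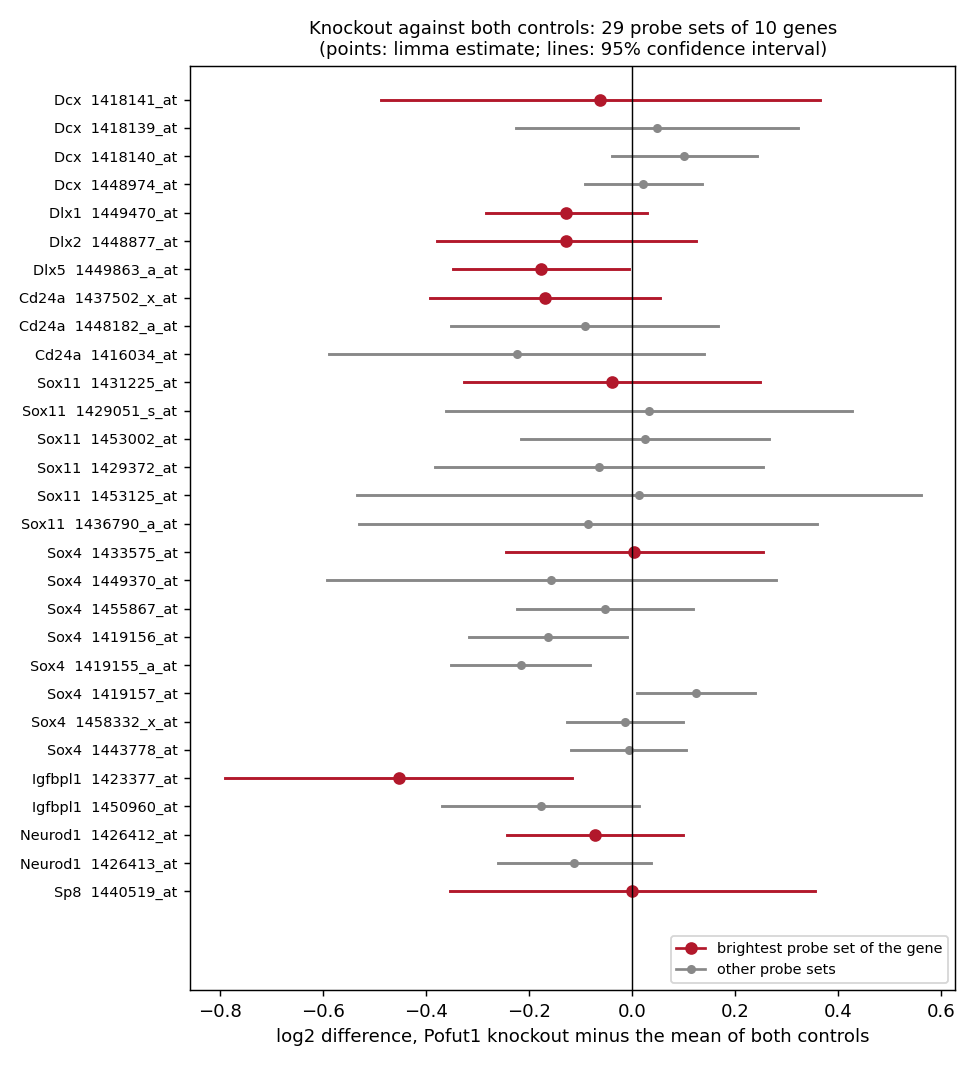
The log2 difference of Pofut1 knockout from the mean of both controls (horizontal axis) for each of the 29 probe sets, with points for the limma estimate and lines for the 95% confidence interval, and with the brightest probe set of each gene in red. The lowest estimate is that of Igfbpl1 at -0.45, and the Sox4 probe sets lie on both sides of 0.

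The Dlx homeodomain transcription factors specify GABAergic neurons that come from the subventricular zone and its embryonic counterpart. Dlx1 had 9.06 and 9.04 in knockout, 8.87 and 9.01 in NestinCre control and 9.39 and 9.43 in Flox control. Both groups with the Nestin-Cre transgene lay below the Flox control, and knockout lay above both NestinCre control arrays. Against both controls the Dlx1 log2 difference was -0.13 (SE 0.06, limma adjusted p = 0.532), an average over controls that themselves lay 0.47 apart. Dlx2, the protein-coding gene next to Dlx1, had 10.26 and 10.28 in knockout, 10.47 and 10.24 in NestinCre control and 10.33 and 10.54 in Flox control. Dlx2 was below the Flox control on both knockout arrays, and knockout overlapped the NestinCre control. The log2 difference from both controls was -0.13 (SE 0.10, limma adjusted p = 0.725), and the controls overlapped, with means 0.08 apart. Leaving out NestinCre control replicate 1 or Flox control replicate 2 put the Dlx2 difference at -0.068 or -0.075. Dlx5 had 8.08 and 8.22 in knockout, 8.28 and 8.199 in NestinCre control and 8.37 and 8.45 in Flox control. It was below the Flox control on both knockout arrays and overlapped the NestinCre control, with a difference from both controls of -0.18 (SE 0.07, 95% interval -0.35 to -0.01, limma adjusted p = 0.435). Without knockout replicate 1 the Dlx5 difference was -0.10.

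The promoters of Dlx1 and Dlx2 are shown because these neighbours differed in how they separated the control groups, and that of Sox4 because it holds the core of the site bound by RBPJ, the DNA-binding partner of Notch. They are from RefSeq, build GRCm38.p6, with 250 bases before and 50 after the annotated start, 5′ to 3′ on the strand of the gene. Capitals mark the RBPJ core TGGGAA and the E box CACGTG, a site for basic helix-loop-helix factors such as those of the Hes and Hey families, each sought on both strands. Dlx1 lies at chr2:71529195-71529494 on the plus strand, Dlx2 at chr2:71546705-71547004 on the minus strand and Sox4 at chr13:28953650-28953949 on the minus strand.
Dlx1: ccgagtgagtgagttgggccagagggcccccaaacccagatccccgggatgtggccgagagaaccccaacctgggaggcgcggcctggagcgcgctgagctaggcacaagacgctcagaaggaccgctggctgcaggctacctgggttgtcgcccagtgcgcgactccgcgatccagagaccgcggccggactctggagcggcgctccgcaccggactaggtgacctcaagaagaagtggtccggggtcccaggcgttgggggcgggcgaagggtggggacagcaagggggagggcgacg
Dlx2: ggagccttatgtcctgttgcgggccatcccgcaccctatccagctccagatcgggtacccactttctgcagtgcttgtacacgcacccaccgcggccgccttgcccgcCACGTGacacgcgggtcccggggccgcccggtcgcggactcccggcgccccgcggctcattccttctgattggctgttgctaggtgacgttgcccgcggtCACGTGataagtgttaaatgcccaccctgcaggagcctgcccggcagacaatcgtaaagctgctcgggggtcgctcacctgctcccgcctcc
Sox4: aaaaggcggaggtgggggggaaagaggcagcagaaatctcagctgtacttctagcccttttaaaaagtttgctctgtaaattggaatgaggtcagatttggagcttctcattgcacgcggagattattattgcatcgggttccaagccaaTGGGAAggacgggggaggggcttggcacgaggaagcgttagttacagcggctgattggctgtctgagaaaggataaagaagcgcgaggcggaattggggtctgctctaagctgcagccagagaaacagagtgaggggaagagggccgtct
Promoters were listed for 7 of the 10 genes, namely Dcx, Dlx1, Dlx2, Neurod1, Sox11, Sox4 and Sp8. Among the 10 promoters listed for them, that of Sox4 held 1 RBPJ core and that of Dlx2 held 2 E boxes, and the others held neither. Of all 32851 promoters of this length 25.6% held the RBPJ core and 7.15% the E box, and the matches are a description of the letters alone.

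Igfbpl1, whose protein resembles insulin-like growth factor binding proteins and which marks neuroblasts, had the largest knockout difference of the 10 genes at their brightest probe sets. Igfbpl1 had 6.33 and 6.61 in knockout, 6.82 and 6.72 in NestinCre control and 7.24 and 6.91 in Flox control. Both knockout arrays lay below all 4 controls, and both NestinCre arrays lay below both Flox arrays. The log2 difference from both controls was -0.45 (SE 0.13, 95% interval -0.79 to -0.12), a ratio of 0.731, and it did not pass (limma adjusted p = 0.345). The other Igfbpl1 probe set (1450960_at) had 6.11 and 6.26 in knockout, 6.26 and 6.33 in NestinCre control and 6.36 and 6.51 in Flox control. Knockout and NestinCre control overlap there by a narrow margin, and both lay below the Flox control. The difference from both controls was -0.18 (SE 0.07, limma adjusted p = 0.483). Both Igfbpl1 probe sets lay below the median level of 7.35, where RMA can compress differences. Without knockout replicate 1, the lower and male knockout array, the Igfbpl1 difference was -0.31, and with sex as a covariate it was -0.40.

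Cd24a, a surface glycoprotein of neuroblasts and ependymal cells, was lowest on the knockout arrays at its brightest probe set. Cd24a had 11.15 and 11.11 in knockout, 11.18 and 11.32 in NestinCre control and 11.24 and 11.47 in Flox control there. The margin between knockout replicate 1 and NestinCre control replicate 1 was narrow, and the difference from both controls was -0.17 (SE 0.09, limma adjusted p = 0.563), or -0.11 without Flox control replicate 2. This Cd24a probe set (1437502_x_at) is of a type that can share sequence with other transcripts, and at the remaining Cd24a probe sets the groups overlap, with differences of -0.09 and -0.22. Ependymal genes had lower values in knockout: 6 of the 8 measured, or 75%, had negative differences (median -0.17), against 59.3% of all genes, among them the cilia genes Spag6 (-0.49, SE 0.09, limma adjusted p = 0.224) and Dynlrb2 (-0.33, SE 0.07, limma adjusted p = 0.242), and none passed. Their part in the Cd24a values was not tested.

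Neurod1, a basic helix-loop-helix factor of granule neurons, had 11.28 and 11.25 in knockout, 11.22 and 11.33 in NestinCre control and 11.47 and 11.32 in Flox control. Knockout lay inside the range of the NestinCre control, and the difference from both controls was -0.07 (SE 0.07, limma adjusted p = 0.783). It ran from -0.035 without Flox control replicate 1 to -0.11 without Flox control replicate 2, and was -0.045 without NestinCre control replicate 2. Its second probe set differed by -0.11 (SE 0.06, limma adjusted p = 0.562). Sp8, a zinc-finger factor of interneurons bound for the olfactory bulb, had 9.42 and 9.26 in knockout, 9.10 and 9.48 in NestinCre control and 9.26 and 9.49 in Flox control. The Sp8 difference was 0.0011 (SE 0.14, 95% interval -0.35 to 0.36, limma adjusted p = 0.999), and its NestinCre control replicates lay 0.38 apart.

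Before adjustment, 4 of the 29 probe sets were lower and 1 was higher in knockout than in both controls at p under 0.05, or 17.2% against 11.1% of all probe sets (5.08% lower and 6.04% higher). The lower ones were Igfbpl1 (1423377_at), Dlx5 and the Sox4 probe sets 1419155_a_at and 1419156_at, and the higher one was Sox4 1419157_at. Both knockout arrays lay below all 4 controls at 3 of 29, or 10.3%, against 9.19% of all probe sets, and above them at 1, or 3.45%, against 8.77%. By probe set, the counts of arrays that do not overlap are near or under the background, and probe sets of a gene are not independent. At the 10 brightest probe sets 2 lay below all controls, or 20% against 10.9% of all genes. None of them lay above, against 7.23%. Of these 10, 2 had an unadjusted limma p under 0.05, or 20% against 10.6%. These shares by gene are above the background and rest on 2 genes each.

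Against NestinCre control alone, which carries the same transgene and differs in the floxed alleles, the median log2 difference of the 10 genes was -0.09. Of the 29 probe sets 0 passed limma's adjusted threshold, as did 0% of all 45037, and 1 had an unadjusted p under 0.05 and was higher in knockout (3.45%, against 5.81% of all, with 2.61% lower and 3.20% higher). At the brightest probe sets the log2 differences ran from -0.30 for Igfbpl1 (SE 0.15, limma adjusted p = 0.959) to 0.11 for Dlx1 (SE 0.07, limma adjusted p = 1). Dcx was at -0.23 (SE 0.19, 95% interval -0.72 to 0.26), with both knockout arrays below both NestinCre control arrays. Leaving out 1 array moved these differences by over 1.5 times: Igfbpl1 was at -0.16 without knockout replicate 1, Dlx1 at 0.035 without NestinCre control replicate 1 and 0.18 without NestinCre control replicate 2, and Dcx at -0.12 without knockout replicate 2 and -0.35 without knockout replicate 1. Both arrays lay below at 20.7% of the 29 probe sets, against 15.4% of all, and above at 10.3%, against 16.4%. At the 10 brightest probe sets the shares were 30% below, against 16.2% of all genes, and 10% above, against 16%. Of these 10, 0% had an unadjusted limma p under 0.05, against 6.12% of all genes.

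Against Flox control alone, which carries the same floxed alleles and no Cre, the median log2 difference of the 10 genes was -0.15, against -0.04 over all genes. Of the 29 probe sets 0 passed limma's adjusted threshold, where 0.00444% of all did. An unadjusted p under 0.05 was found for 8, of which 7 were lower in knockout (27.6% in all, against 15.9% of all probe sets, with 7.65% lower and 8.29% higher). Dlx1 was at -0.36 (SE 0.07, 95% interval -0.55 to -0.18, limma adjusted p = 0.148), Igfbpl1 at -0.61 (SE 0.15, 95% interval -0.995 to -0.22, limma adjusted p = 0.192) and Dlx5 at -0.26 (SE 0.08, limma adjusted p = 0.228). The smallest limma adjusted p of the 29 was 0.145, for the Sox4 probe set 1419156_at (-0.38, SE 0.07). The higher one was the dim Dcx probe set 1418140_at (0.19, SE 0.06, limma adjusted p = 0.263). Both knockout arrays lay below both Flox arrays at 6 of the 10 brightest probe sets, or 60%, against 30.3% of all genes, and at 37.9% of the 29, against 24.8% of all probe sets. They lay above at 10.3% of the 29, against 22.0%.

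**Figure D3:**
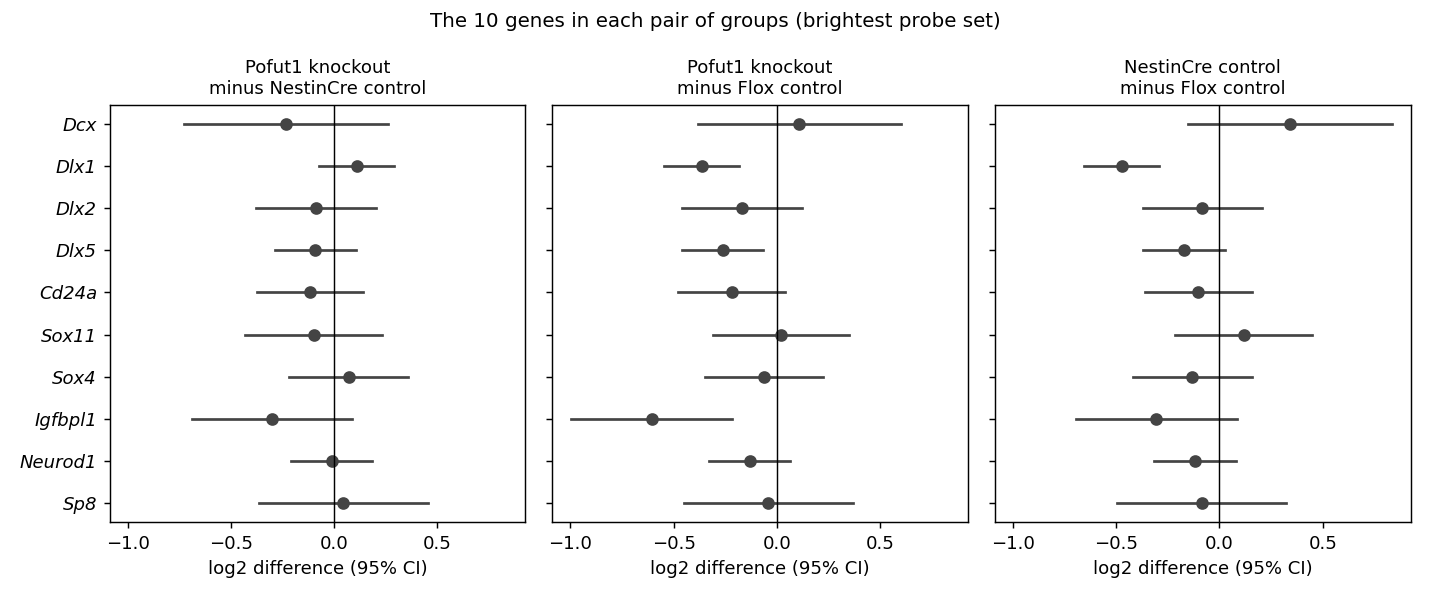
The log2 difference (horizontal axis) of the brightest probe set of each gene for knockout minus NestinCre control, knockout minus Flox control and NestinCre control minus Flox control, with lines for the 95% confidence interval. Dlx1 is at -0.36 and -0.47 in the panels against Flox control and at 0.11 against NestinCre control.

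The controls also lay apart from each other at some of these genes, although no knockout array enters that comparison and none passed. Dlx1 was lower in NestinCre control than in Flox control by a log2 difference of -0.47 (SE 0.07, 95% interval -0.65 to -0.29), and it did not pass (limma adjusted p = 0.376). The Sox4 probe set 1419156_at had 6.97 and 6.83 in knockout, 6.83 and 6.86 in NestinCre control and 7.26 and 7.31 in Flox control, a NestinCre minus Flox difference of -0.44 (SE 0.07, limma adjusted p = 0.376). Igfbpl1 was at -0.31 (SE 0.15), Dlx5 at -0.17 (SE 0.08) and Dcx at 0.34 (SE 0.19). Without Flox control replicate 1 Dcx was at 0.078 and Igfbpl1 at -0.14, and without Flox control replicate 2 they were at 0.61 and -0.47. Of the 29 probe sets 0 passed, as did 0% of all, while 6 had an unadjusted p under 0.05 (20.7%, against 10.4% of all, with 5.22% lower and 5.20% higher). Of these, 5 were lower in NestinCre control and 1, Dcx 1418140_at, was higher (0.17, SE 0.06). Both NestinCre arrays lay below both Flox arrays at 34.5% of the 29, against 23.6% of all, and above at 17.2%, against 18.8%. At the 10 brightest probe sets the shares were 30% below, against 30.4% of all genes, and 10% above, against 11%. Of these 10, 1 had an unadjusted p under 0.05, or 10% against 9.15%. The shares by gene are near the background. The comparisons against Flox control share its arrays, which are those with the pituitary transcripts. The part of that signal in the Dlx1, Igfbpl1 and Sox4 values was not tested. The higher pituitary array, Flox control replicate 2, was the lower Flox array at the brightest Igfbpl1 probe set and the higher one at the other. It was the higher Flox array at Dlx1, with 9.43 against 9.39. The same held at 5 of 8 Sox4 probe sets, among them 1419156_at, and at 22169 of all 45037 probe sets.

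Most other genes of newborn neurons also had small differences. Of 30 listed, 28 were measured, and in knockout against both controls 20 were below 0 (71.4%, against 59.3% of all genes), with a median log2 difference of -0.06. None passed, and 2 had an unadjusted p under 0.05, or 7.14% against 10.6% of all genes. Prokr2, a prokineticin receptor needed for neuroblast migration, had 6.61 and 6.76 in knockout, 6.76 and 6.78 in NestinCre control and 7.18 and 7.03 in Flox control (-0.25, SE 0.07, limma adjusted p = 0.355). Draxin, an axon guidance factor, had 6.04 and 6.09 in knockout, 6.26 and 6.28 in NestinCre control and 6.12 and 6.24 in Flox control (-0.16, SE 0.06, limma adjusted p = 0.416). Prokr2 was highest in Flox control, as Dlx1 was, whereas Draxin was highest in NestinCre control. Robo2 had the wider spread of 8.29 and 6.84 in knockout, 8.41 and 8.39 in NestinCre control and 8.17 and 7.33 in Flox control. Its difference from both controls was -0.51 (SE 0.46, limma adjusted p = 0.779), and knockout overlapped the controls.

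Genes on the progenitor and proliferation lists had larger differences in value. Of 17 measured progenitor genes 14 were lower in knockout than in both controls (82.4%, against 59.3% of all genes), with a median of -0.21. Of these 17, 6 had an unadjusted p under 0.05 (35.3%, against 10.6%). Against NestinCre control alone 10 of 17 were lower (58.8%, against 50.9%), with a median of -0.10. Between the controls 15 of 17 were lower in NestinCre control than in Flox control (88.2%, against 64.2%). The Notch target Hes5, a repressor of neuronal differentiation genes, had 6.19 and 6.52 in knockout, 7.70 and 7.45 in NestinCre control and 8.04 and 7.77 in Flox control (-1.38, SE 0.14, limma adjusted p = 0.120). Thbs4, a secreted thrombospondin of subventricular zone astrocytes, was at -0.86 (SE 0.14). Of 11 measured proliferation genes 9 were higher, with a median of 0.39, and 5 had an unadjusted p under 0.05 (45.5%, against 10.6%). Mki67, a marker of cycling cells, had 7.17 and 7.21 in knockout, 6.52 and 6.81 in NestinCre control and 6.79 and 6.75 in Flox control (0.47, SE 0.09, limma adjusted p = 0.241). Top2a, the topoisomerase of dividing cells, was at 0.45 (SE 0.10). None of these progenitor or proliferation genes passed, so the contrast with the 10 genes is in their values, and it was not tested. Which cells of the whole brain carried these differences was not tested either.

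**Figure D4:**
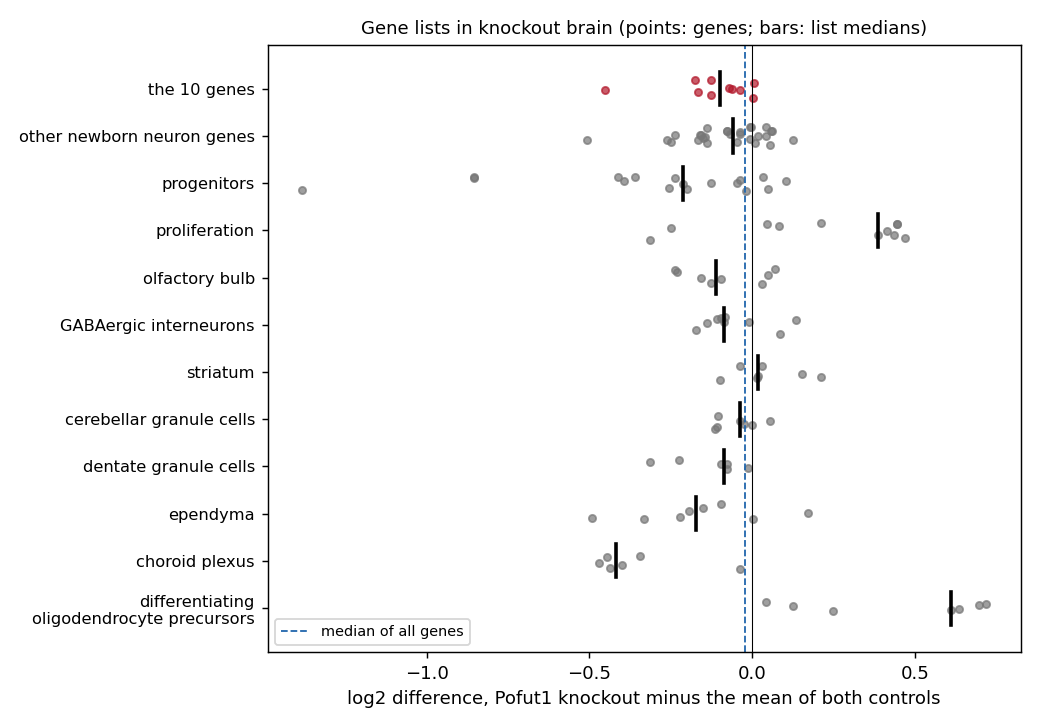
The log2 difference of Pofut1 knockout from the mean of both controls (horizontal axis) for each measured gene of 12 lists, with bars for list medians and a dashed line for the median of all genes, -0.02. The 10 genes have a median of -0.10, progenitor genes -0.21, proliferation genes 0.39 and differentiating oligodendrocyte precursors 0.61.

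Other cells and regions that carry these transcripts were compared in the same way, for knockout against both controls. Over all genes 59.3% were lower. Olfactory bulb genes had a median of -0.11 (5 of 8 lower), with the projection neuron gene Tbx21 at -0.23 (SE 0.07). Eomes, which is on both the olfactory bulb and progenitor lists, was at -0.24 (SE 0.04). Against NestinCre control alone Eomes was at -0.09 (SE 0.05), and for NestinCre minus Flox control at -0.29 (SE 0.05). Of the olfactory bulb genes 5 of 8 were lower in knockout than in NestinCre control, and 8 of 8 were lower in NestinCre than in Flox control. GABAergic interneuron genes had a median of -0.09 (7 of 9 lower), with Gad1, which makes GABA, at -0.14 (SE 0.07) and Reln at 0.13 (SE 0.06). Cerebellar granule cell genes had a median of -0.04 (5 of 7 lower), with Zic1 at -0.11 (SE 0.07) and Gabra6 at -0.11 (SE 0.09). Dentate granule cell genes had a median of -0.09 (6 of 6 lower), with Dsp at -0.31 (SE 0.12) and Trpc6 at -0.23 (SE 0.10). Striatal genes had a median of 0.02 (2 of 7 lower), with Rgs9 at 0.15 (SE 0.08) and Drd1 at 0.21 (SE 0.19). Against NestinCre control alone 0 of 7 striatal genes were lower, and against Flox control alone 4 of 7. Genes of differentiating oligodendrocyte precursors, which also use Sox4 and Sox11, were all higher, at a median of 0.61 over 7 measured. The sizes were uneven, from Vcan at 0.72 (SE 0.11) and Bmp4 at 0.70 (SE 0.17) to Pdgfra at 0.12 (SE 0.06) and Cspg4 at 0.04 (SE 0.12). Against NestinCre control alone 7 of 7 were higher, and against Flox control alone 6 of 7. Choroid plexus genes were all lower, at a median of -0.42 over 6, with Kcne2 at -0.47 (SE 0.11) and Kl at -0.40 (SE 0.09). Medians were -0.02 for general neuronal genes, 0.02 for blood genes and -0.17 for pituitary genes. The pituitary median was 0.21 against NestinCre control alone and -0.61 against Flox control alone. No gene of these lists passed over all probe sets, and their part in the values of the 10 genes was not tested.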

How the data were processed

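The authors deposited 1 intensity per probe set and array on a linear scale. Per the submitters' processing notes, GCOS and RMA were used, with no version or role given. RMA gives the arrays a common distribution and compresses differences of dim probe sets. The table held 45101 probe sets, and 64 control probe sets were left out. Symbols came from the platform annotation. The deposited intensities were put on the log2 scale, and limma 3.58.1 in R 4.3.3 was fitted with a mean per group over all 6 arrays, with 3 residual degrees of freedom and 4.94 with the prior. The plan was for values on a log2 scale, with log2 taken first where the deposited values are linear. Before use, the limma code was checked on simulated data. Each SE comes from limma. The brightest probe set, by mean over 6 arrays, stands for a gene.

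The members, gene lists and naming rule were chosen with earlier results of these data known. The rule named all 10 genes with their probe sets, Pofut1, up to 2 genes of each other list by smallest p in knockout against both controls, and the 5 genes most like Dcx. Snap25, outside the rule, was named after its values were seen, as a check of the tissue. The pituitary genes Gh, Cga, Tshb and Lhb were also named outside the rule, after their values were seen, as were Pdgfra, Cspg4 and Robo2. Nothing in the labels ties the samples to separate mice. By Xist and Eif2s3y the replicates differed in sex in the knockout and NestinCre control groups, so within each of these groups they came from different mice. Both Flox control arrays were female, and whether they came from separate mice was not tested. The p-values reflect only variation among these 6 arrays, some of which may be technical. Precision is limited by how few arrays there are. The alternatives tried were sex as a covariate, 1 probe set per gene, a filter on dim probe sets, an intensity trend, log2 of the value plus 16, median centring, quantile normalization run again, a replicate block, fits of the compared groups only, and leaving out each array.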

Additional observations from a re-analysis of the deposited data

How the results depend on the processing

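In all 15 alternatives, 0 of the probe sets of the 10 genes passed in any comparison. The counts over all probe sets did move. Against both controls the count of 7 became 22 with centring on array medians, 36 with dim probe sets filtered out, 135 with an intensity trend, 34 with 1 probe set per gene, 0 with sex as a covariate, and 0 to 1 with an array left out. Against NestinCre control the count of 0 became 9 with centring, 11 with the filter, 39 with the trend, 1 with the compared groups alone, 10 with 1 probe set per gene, and 0 to 1 with an array left out. Against Flox control the count of 2 became 9 with centring, 23 with the filter, 162 with the trend and 20 with 1 probe set per gene. It was 0 with a repeated quantile normalization, log2 of the value plus 16, the compared groups alone, sex as a covariate, or any array left out. Between the controls the count of 0 became 1 with the trend and 0 to 2 with an array left out. The replicate number as a block gave 0 calls in each comparison. Deviations of same-numbered arrays correlated at 0.19 between NestinCre and Flox control, -0.31 between knockout and NestinCre control and -0.24 between knockout and Flox control. The replicate numbers thus do not pair knockout arrays with controls. With 2 arrays per group, reversing the knockout order changes the sign of both negative values. Knockout replicate 2 therefore deviated along with replicate 1 of both controls. A block in that order was not fitted, and its cause was not tested.

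Among 586 alternative values of the 10 genes, 36 had the opposite sign, all of small differences that did not pass. Against both controls, Sox4 became -0.0080 with centring and -0.049 with sex as a covariate, and Sp8 -0.012 and -0.067. Against Flox control, Sox11 became -0.0040 with centring and -0.053 with sex. With an array left out, the differences from both controls ran from -0.19 to 0.071 for Dcx, -0.13 to 0.052 for Sox11, -0.11 to 0.12 for Sox4 and -0.094 to 0.10 for Sp8. Against NestinCre control they ran from -0.20 to 0.032 for Dlx2, -0.28 to 0.083 for Sox11, -0.040 to 0.18 for Sox4, -0.065 to 0.041 for Neurod1 and -0.15 to 0.23 for Sp8. Against Flox control they ran from -0.15 to 0.37 for Dcx, -0.015 to 0.056 for Sox11, -0.17 to 0.050 for Sox4 and -0.16 to 0.073 for Sp8. For NestinCre against Flox control they ran from -0.20 to 0.036 for Dlx2, -0.22 to 0.011 for Cd24a, -0.063 to 0.30 for Sox11 and -0.28 to 0.11 for Sp8. Dlx1, Dlx5 and Igfbpl1 kept their sign in every alternative run. The cause of these sign changes was not tested.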
